A study of Mus musculus with 6 samples.

Results

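The enzymes that make, carry and burn pyruvate and lactate, together with those of the tricarboxylic acid (TCA) cycle and the malate-aspartate shuttle, were followed in mouse skeletal muscle as a set of 37 named genes. They were taken by gene symbol, by a rule that names the genes and sets no threshold on a measured value, from a table of 54532 genes. All 37 were found, each in 1 row, and all 37 had enough counts to be tested, among 14973 tested genes. Messenger RNA had been sequenced from gastrocnemius, the fast-twitch calf muscle, in 6 libraries of 3-month-old C57BL/6J mice. The 3 libraries labelled transgenic carried the genotype Mck cre; Tg Glut1-Hk2-Pfkfb3, and the 3 control libraries carried Mck cre. Cre under the muscle creatine kinase promoter (Mck) acts in skeletal and cardiac muscle, and both groups carried it. Both groups also drank water with 0.2% doxycycline from the age of 4 weeks. The labels name no allele that responds to doxycycline, and they do not say which species the transgene comes from. Nor do they say that the 3 libraries of a group came from separate animals, so the p-values measure only the spread between these samples, which may be technical.

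In working muscle, glycolysis delivers pyruvate, which lactate dehydrogenase converts to lactate or the mitochondrial pyruvate carrier admits to the matrix. There the pyruvate dehydrogenase complex turns it into acetyl-CoA, under kinases that switch the complex off and phosphatases that switch it on. Pyruvate carboxylase and the malic enzymes move carbon between pyruvate and the C4 acids of the TCA cycle, and the shuttle enzymes carry reducing power from the cytosol into the mitochondrion.

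Library totals ran from 19546456 to 23381569 counts in the transgenic group and from 21796564 to 24665024 counts in the control group. The group labels were set against the genes named in the transgene, none of which passed the test. Reads were counted on mouse genes, and the species of the transgene is not given. Whether transcripts of the transgene were counted there is not known, so these values cannot decide whether the labels are right. Pfkfb3 averaged 379.5 ± 227 CPM (counts scaled to library size) in the libraries labelled transgenic and 1087 ± 503 CPM in controls (SD, n = 3 each). Slc2a1, which encodes GLUT1, averaged 10.4 ± 2.79 CPM in the libraries labelled transgenic and 16.0 ± 6.30 CPM in controls. Both means go against the label, as far as the transgene was counted under these genes. Pfkfb3 was lower in every library labelled transgenic than in any control (log2 fold change -1.52, edgeR adjusted p = 0.196). The groups overlapped for Slc2a1 (-0.63, adjusted p = 0.290). Hk2, the hexokinase of muscle, averaged 230.3 ± 96.1 CPM in the libraries labelled transgenic and 169 ± 16.1 CPM in controls, which goes with it (log2 fold change 0.44, edgeR adjusted p = 0.381), through 341 CPM in replicate 1 where replicates 2 and 3 had 168 and 182 CPM. Every direction given here is drawn between libraries as labelled. Of 10 fast-fibre markers, 9 were at 2811 CPM or more in every library, and Tnnc2, the fast troponin C, was at 0.436 to 0.826 CPM. Control replicate 1 stood apart: its log2 CPM correlated with the other 5 libraries at r = 0.947 to 0.961, while the 10 pairs without it gave 0.962 to 0.988. Its 7 B cell markers summed to 504 CPM, against 6.94 to 56.7 CPM in the libraries labelled transgenic and 8.18 and 14.5 CPM in the other controls. Its 7 T and NK cell markers summed to 90.4 CPM, against 0.785 to 4.36 CPM in the libraries labelled transgenic and 0.520 and 0.599 CPM in the other controls. All 14 of these markers were highest in control replicate 1, and Ms4a1, Cd3d, Cd3g, Cd8a and Nkg7 were each at 0 in at least 1 other library.

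No enzyme of the set was called as higher or lower in the libraries labelled transgenic. In edgeR's quasi-likelihood test 0 of the 37 genes had an adjusted p under 0.05, against 194 of all tested genes (1.3%). At an unadjusted edgeR p under 0.05 there were 4, Me3, Ldhd, Me1 and Pcx, which is 10.8% of the set against 20.8% of all genes in either direction. All 4 had lower means in the libraries labelled transgenic, a direction that held 10.3% of all genes. None of the set was higher at that p, against 10.5% of all genes. DESeq2 called 1 of the 37, Me3, where it called 7.11% of all genes, and limma-voom called 0 of the 37, where it called 0.962%. The log2 fold change (transgenic over control) was below 0 for 24 of the 37 genes and for 53.4% of all tested genes. With library totals as the only scaling it was below 0 for 14 of the 37, and for 37.2% of all genes. The median log2 fold change was -0.11 over the 37 genes and -0.03 over all tested genes. With library totals alone these medians were 0.05 and 0.12, and values near 0 can take either sign with the scaling. In 5 of the 37 genes the 3 libraries labelled transgenic and the 3 controls did not overlap, Ldhd, Pdp1, Me1 and Me3 below the controls and Pdhb above them, which is 13.5% of the set against 27.4% of all tested genes.

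**Figure D1:**
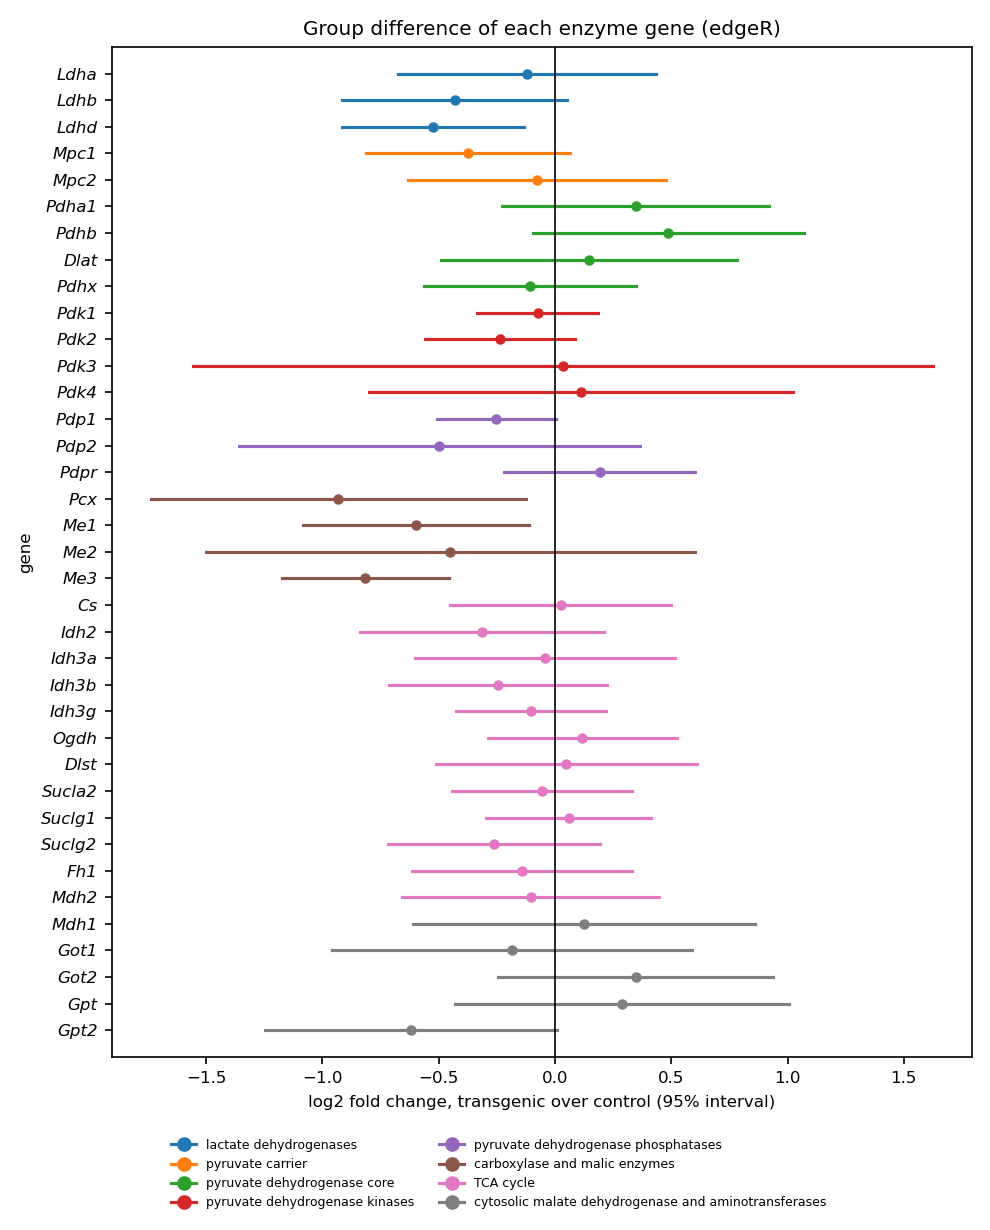
Log2 fold change (libraries labelled transgenic over control libraries) of each of the 37 genes, grouped by role, with points for the edgeR estimate and bars for its 95% interval (n = 3 each). The estimates run from -0.93 for Pcx to 0.49 for Pdhb, and the intervals of Ldhd, Pcx, Me1 and Me3 leave out 0 before adjustment for the number of genes tested.

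Per base of the gene length in the deposited table, the RNA of this pathway was dominated by a kinase and by the muscle lactate dehydrogenase. That length, 14624 bases for Me3, need not be that of the transcripts present. The order of levels and the isozyme shares depend on it. Pdk4 stood at 2102 ± 177 FPKM in the libraries labelled transgenic and 1946 ± 631 FPKM in controls (SD, n = 3 each). Ldha came next at 776 ± 76.5 FPKM in the libraries labelled transgenic and 844 ± 115 FPKM in controls. The remaining genes were all below these levels. Got1 averaged 223 ± 62.1 FPKM in the libraries labelled transgenic and 253 ± 98.5 FPKM in controls, and Mdh1 averaged 198 ± 94.7 FPKM in the libraries labelled transgenic and 182 ± 25.2 FPKM in controls. These neighbours in the order did not differ beyond their spread. At the low end stood Me3, at 2.40 ± 0.0890 FPKM in the libraries labelled transgenic and 4.23 ± 0.796 FPKM in controls. Below it came Me2 and, lowest of all, Pdk3 at 0.390 ± 0.0795 FPKM in the libraries labelled transgenic and 0.366 ± 0.398 FPKM in controls. The order was the same in both groups for the first 4 places (Pdk4, Ldha, Got1, Mdh1) and for the last 5 (Pdp1, Pdp2, Me3, Me2, Pdk3).

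**Figure D2:**
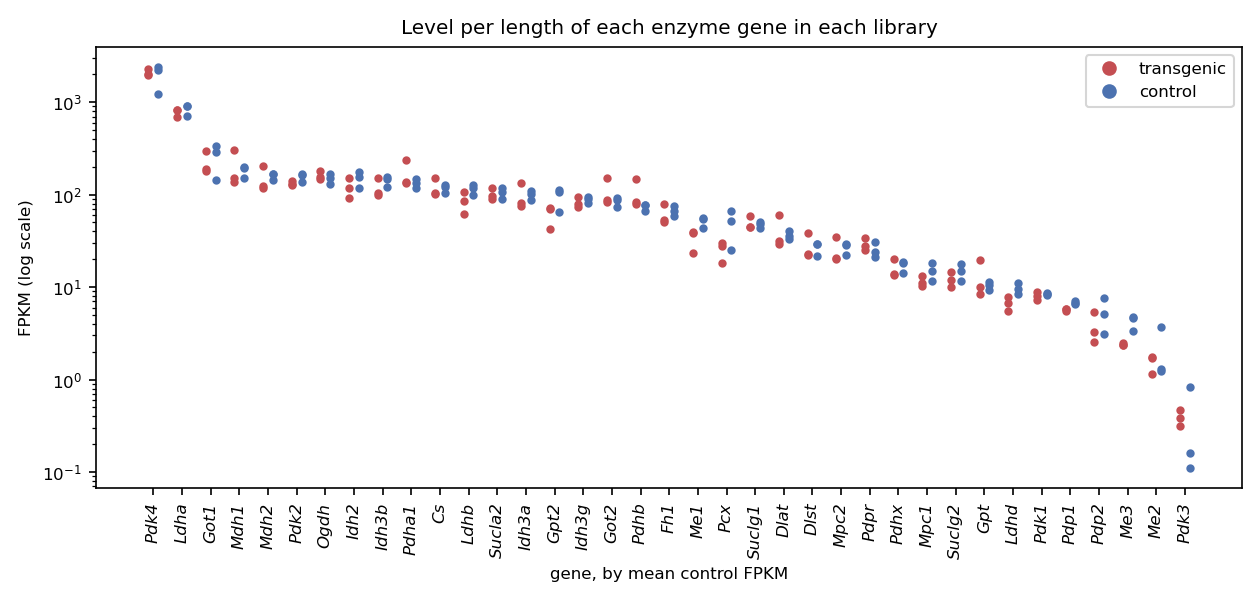
FPKM of each of the 37 genes in each library on a log axis, with 1 point a library and the libraries labelled transgenic left of the control libraries at each gene. Pdk4 and Ldha lead in both groups, and Pdk3 is lowest in both.

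The 4 genes of the carboxylase and malic enzyme branch all had log2 fold changes below 0, with a median of -0.71, and none of the 4 changed sign when library totals alone set the scale. Me3 encodes the mitochondrial NADP-dependent malic enzyme, which releases pyruvate from malate (ENSMUSG00000030621, chromosome 7, 89632392 to 89854359, forward strand). It had 37.02, 34.6 and 34.1 CPM in the libraries labelled transgenic, against 48.9, 67.4 and 69.7 CPM in the control libraries. All 3 libraries labelled transgenic lay close together and below every control, and control replicate 1 was the lowest of the controls. On the log2 scale the fold change came to -0.82 ± 0.15 (SE), the 95% interval reached from -1.17 to -0.46, and edgeR gave a p of 0.000878 and an adjusted p of 0.0546. Me3 had the smallest p of the 37 genes and still missed the threshold. It passed in DESeq2 (log2 fold change -0.81, adjusted p = 0.000569), with library totals alone (-0.65, adjusted p = 0.0334), where 1.73% of all genes passed, and in edgeR without control replicate 1 (-0.96, adjusted p = 0.00636). Over the alternatives reported here its adjusted p ranged from 0.000569 to 0.215 and its log2 fold change from -0.96 to -0.61.

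Pcx encodes pyruvate carboxylase, the mitochondrial enzyme that makes oxaloacetate from pyruvate (ENSMUSG00000024892, chromosome 19, 4510472 to 4621752, forward strand). Its levels were 86.4, 128.6 and 137.4 CPM in the libraries labelled transgenic, against 117.3, 243.1 and 312.0 CPM in the control libraries. Control replicates 2 and 3 lay well above all other libraries, while control replicate 1 lay among those labelled transgenic, so the groups overlapped. The log2 fold change of -0.93 ± 0.35 (SE, 95% interval -1.74 to -0.13) was the lowest of the 37, with an edgeR adjusted p of 0.191. Over the alternatives reported here the adjusted p ranged from 0.0181 to 0.442. Without control replicate 1 the log2 fold change was -1.24 with an edgeR adjusted p of 0.0181. That fit, 3 libraries against 2, called Pcx and Me3 among the 37 genes, both lower, where it called 6.99% of all tested genes as lower. Pcx is also abundant in adipocytes, whose 6 markers summed to 114, 430.4 and 262 CPM in the libraries labelled transgenic and to 499.6, 108 and 176 CPM in controls. That sum was lowest in control replicate 2 and transgenic replicate 1, which had high and low Pcx, and its part in the Pcx values was not tested. The Lrfn4 gene overlaps Pcx on the opposite strand, with counts of at most 9.23% of those of Pcx.

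Me1, the cytosolic malic enzyme that supplies NADPH, had 91.4, 152.5 and 147.4 CPM in the libraries labelled transgenic, against 170.0, 208.3 and 214.5 CPM in the control libraries (ENSMUSG00000032418, chromosome 9, 86581371 to 86695953, reverse strand). The groups did not overlap, and transgenic replicate 1 was the lowest of all. The log2 fold change was -0.60 ± 0.21 (SE, 95% interval -1.09 to -0.11, edgeR adjusted p = 0.174). Me2, the mitochondrial NAD-dependent malic enzyme, was far scarcer, at 2.81 to 4.38 CPM in the libraries labelled transgenic and 3.04 to 9.18 CPM in controls. Its highest value was that of control replicate 1, the library with high B and T cell markers, whose part in this value was not tested. Me2 had a log2 fold change of -0.45 over all 6 libraries and of 0.28 without control replicate 1.

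The promoters of Me3, Pcx and Me1 are shown because these genes had the smallest p-values of the carboxylase and malic enzyme branch, and that of Pdhb because it is the member that lay above all controls. Each runs from 250 bases before to 50 after the RefSeq start on GRCm38.p6, written 5′ to 3′ on the gene's strand, with capitals for the motifs CACGTG (E-box), AAGGTCA (oestrogen-related receptor element), CCAAT and GGGCGG (GC box) on either strand. The windows are chr7:89632568-89632867 (forward strand) for Me3, chr19:4510222-4510521 (forward) for Pcx, chr9:86695865-86696164 (reverse) for Me1 and chr14:8172943-8173242 (reverse) for Pdhb.
Me3: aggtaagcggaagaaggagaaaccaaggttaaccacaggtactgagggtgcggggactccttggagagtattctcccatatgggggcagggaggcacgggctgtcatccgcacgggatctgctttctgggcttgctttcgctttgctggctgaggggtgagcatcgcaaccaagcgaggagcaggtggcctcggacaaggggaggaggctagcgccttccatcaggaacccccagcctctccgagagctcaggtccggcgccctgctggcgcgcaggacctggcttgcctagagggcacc
Pcx: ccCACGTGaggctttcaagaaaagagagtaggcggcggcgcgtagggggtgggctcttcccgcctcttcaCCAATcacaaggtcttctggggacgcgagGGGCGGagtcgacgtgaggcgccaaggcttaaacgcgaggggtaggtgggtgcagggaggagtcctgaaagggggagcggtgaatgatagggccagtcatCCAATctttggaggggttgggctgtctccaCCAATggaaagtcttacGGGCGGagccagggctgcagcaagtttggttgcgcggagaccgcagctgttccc
Me1: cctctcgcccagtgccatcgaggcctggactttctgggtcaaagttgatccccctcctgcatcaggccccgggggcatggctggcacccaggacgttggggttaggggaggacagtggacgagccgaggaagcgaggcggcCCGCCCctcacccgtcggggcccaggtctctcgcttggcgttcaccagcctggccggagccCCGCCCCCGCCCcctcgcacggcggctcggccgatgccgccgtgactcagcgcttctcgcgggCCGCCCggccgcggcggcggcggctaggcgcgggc
Pdhb: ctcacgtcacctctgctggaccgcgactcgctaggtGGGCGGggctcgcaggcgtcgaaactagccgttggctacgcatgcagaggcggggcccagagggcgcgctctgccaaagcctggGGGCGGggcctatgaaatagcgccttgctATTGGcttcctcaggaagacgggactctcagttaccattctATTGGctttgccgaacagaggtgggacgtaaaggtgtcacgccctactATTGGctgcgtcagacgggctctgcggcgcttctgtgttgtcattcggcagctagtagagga
Of the RefSeq windows of Me3, Me1 and Pdhb, the one with the start furthest upstream was taken. In the Me3 window none of the 4 motifs was found. The Pcx window was taken for its E-box, 248 bases before the start, so that motif was fixed by the choice of window. It also held CCAAT at 180, 51 and 21 bases and a GC box at 151 and 4 bases before the start. The Me1 window held GC boxes alone, written CCGCCC as read on the gene's strand. They lay at 109, 48 and 42 bases before the start and 15 after it. Another RefSeq window of Me1 held CCAAT. The Pdhb window held GC boxes at 214 and 130 bases before the start and CCAAT, written ATTGG, at 101, 60 and 12 bases before it.

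RefSeq windows were matched for 33 of the 37 genes, and some genes have several. Those without one were Pdp1, Gpt, Me2 and Idh3a. CACGTG occurred in 7 of the 33 (21.2%), which were Ldha, Ldhd, Ogdh, Pcx, Pdk2, Pdp2 and Pdpr, and in 8.09% of all 27025 genes with windows of the same length. CCAAT occurred in 20 (60.6%) of the 33 against 41.1% of all genes, GGGCGG in 22 (66.7%) against 38.2%, and AAGGTCA in 2 (6.06%), Got1 and Ogdh, against 5.38%. These are matches of letters in 1 or more windows a gene and not measured binding. The 33 genes had 44 windows and the 27025 genes had 32851. The 27025 genes include genes not tested here, while all of the 33 were tested, so the shares are not set on a like basis. Of the 4 genes with unadjusted p under 0.05, Me3 had none of the 4 motifs in any window. Ldhd, Pcx and Me1 each had CCAAT, which occurred in 41.1% of all genes.

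The lactate dehydrogenase genes all had lower means in the libraries labelled transgenic, none past the test, and with library totals alone the sign of Ldha turned (0.04). Ldha, the muscle subunit that favours lactate formation, had 2755, 2705 and 2265 CPM in the libraries labelled transgenic, against 2374, 2996 and 3032 CPM in the control libraries. The groups overlapped, with a log2 fold change of -0.12 ± 0.24 (SE, 95% interval -0.68 to 0.43, edgeR adjusted p = 0.803). Ldhb, the heart-type subunit that favours lactate use, had 170.0, 98.1 and 131.9 CPM in the libraries labelled transgenic, against 155.0, 186.0 and 198.8 CPM in controls. Transgenic replicate 1 lay among the controls and the other libraries of its group below them (-0.43 ± 0.21, 95% interval -0.91 to 0.05, adjusted p = 0.283). As a share of the summed Ldha and Ldhb FPKM, Ldhb made up 11.5%, 7.10% and 10.9% in the libraries labelled transgenic and 12.1%, 11.6% and 12.1% in controls. Every share in the libraries labelled transgenic lay below every control share, replicate 1 by a narrow margin. Ldhd, the mitochondrial D-lactate dehydrogenase, had 42.5, 29.4 and 35.8 CPM in the libraries labelled transgenic, against 45.3, 50.9 and 59.0 CPM in controls (ENSMUSG00000031958, chromosome 8, 111623785 to 111630374, reverse strand). These groups did not overlap (-0.53 ± 0.17, 95% interval -0.92 to -0.14, adjusted p = 0.151). Ldhd is uncertain, since Znrf1 overlaps it on the opposite strand with counts of up to 178% of its own.

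**Figure D3:**
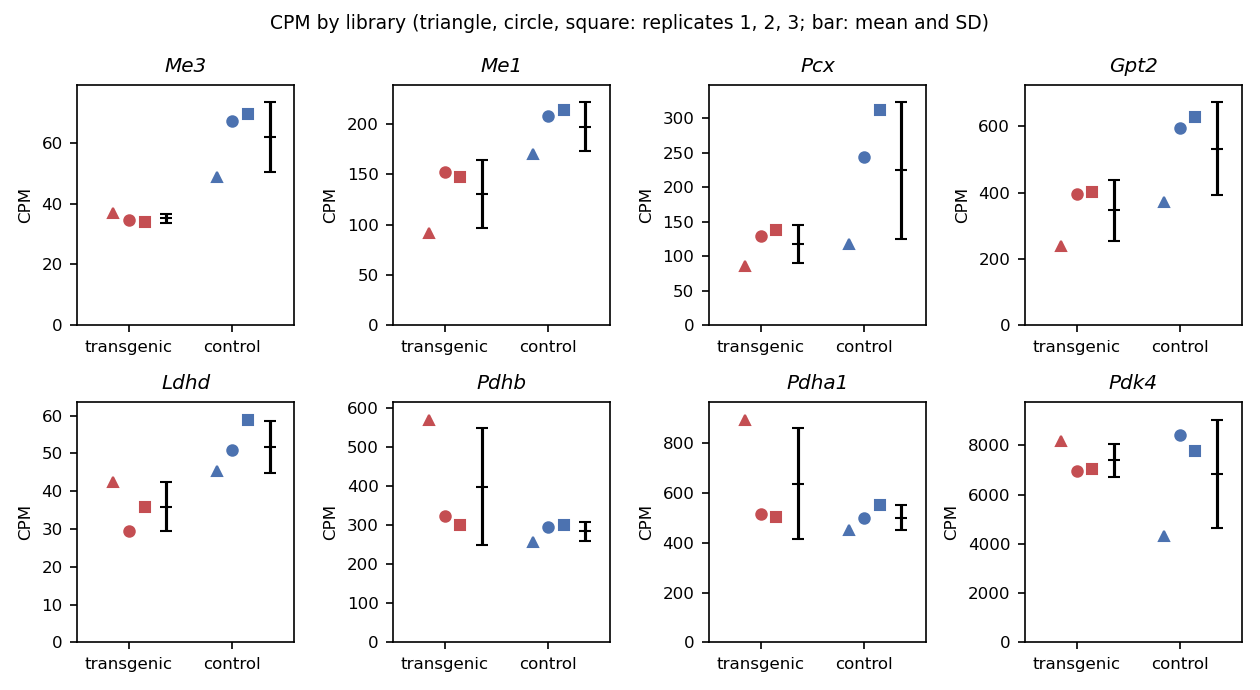
CPM of Me3, Me1, Pcx, Gpt2, Ldhd, Pdhb, Pdha1 and Pdk4 in each library (triangle, circle and square for replicates 1, 2 and 3), with the libraries labelled transgenic left of the control libraries and black bars for the mean and SD (n = 3 each). The libraries labelled transgenic lie below every control for Me3, Me1 and Ldhd, and transgenic replicate 1 stands far above the other libraries for Pdhb and Pdha1.

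The mitochondrial pyruvate carrier is built from Mpc1 and Mpc2. Mpc1 had 27.5, 23.2 and 21.4 CPM in the libraries labelled transgenic, against 24.3, 38.3 and 30.9 CPM in the control libraries, with a log2 fold change of -0.37 ± 0.19 (SE, edgeR adjusted p = 0.303). The groups overlapped through transgenic replicate 1 and control replicate 1. The 4930506C21Rik gene overlaps Mpc1 on the opposite strand, with counts of at most 6.35% of those of Mpc1. Mpc1 is uncertain, because its pseudogene Mpc1-ps on chromosome 12 (110858565 to 110858894) took 74.5% to 78.2% of the reads of both. Summed, the pair had 126, 91.1 and 88.9 CPM in the libraries labelled transgenic and 109, 153 and 141 CPM in controls, a log2 ratio of means of -0.40. Mpc2 had 260.1, 153.3 and 145.7 CPM in the libraries labelled transgenic, against 165.3, 209 and 215.3 CPM in controls. Transgenic replicate 1 was the highest of the 6 libraries and replicates 2 and 3 the lowest, so the log2 fold change of -0.08 ± 0.24 (adjusted p = 0.884) averages values that lie on both sides of the controls. With library totals alone the sign of Mpc2 turned (0.08).

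Of the pyruvate dehydrogenase core, Pdha1 and Pdhb encode the subunits of the decarboxylase, Dlat the acetyltransferase and Pdhx the protein that binds the lipoamide dehydrogenase to it. Pdhb had 569.5, 322.4 and 300.5 CPM in the libraries labelled transgenic, against 256.4, 295.2 and 298.9 CPM in the control libraries (ENSMUSG00000021748, chromosome 14, 8165996 to 8173025, reverse strand). All 3 lay above the controls, replicate 3 by a margin of under 1%, and replicate 1 far above (0.49 ± 0.25, 95% interval -0.09 to 1.07, edgeR adjusted p = 0.311). Without transgenic replicate 1 the log2 fold change of Pdhb was 0.15. The other core genes showed the same library on top, with 893.3 CPM of Pdha1 in transgenic replicate 1, where the other libraries labelled transgenic had 502 and 514 CPM and the controls 449 to 552 CPM. Pdha1 and Dlat had log2 fold changes of 0.35 and 0.15, which were 0.038 and -0.25 without transgenic replicate 1, and Pdhx had -0.11, which was 0.05 with library totals alone.

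The kinases Pdk1 to Pdk4 phosphorylate and silence the complex, and Pdk4 is the isozyme that muscle raises in fasting. Pdk4 had 8173, 6951 and 7054 CPM in the libraries labelled transgenic, against 4335, 8436 and 7763 CPM in the control libraries. The libraries labelled transgenic lay within the range of the controls, control replicate 1 being lowest (0.11 ± 0.39 SE, 95% interval -0.80 to 1.02, edgeR adjusted p = 0.900). Without control replicate 1 its log2 fold change was -0.13. Pdk4 made up 93.9%, 93.5% and 93.8% of the summed FPKM of the 4 kinases in the libraries labelled transgenic and 89.2%, 93.2% and 92.8% in controls. Pdk2, the second kinase by level, had 450.2, 411.4 and 396.3 CPM in the libraries labelled transgenic, against 441.0, 526.1 and 516.3 CPM in controls. The groups overlapped through transgenic replicate 1 and control replicate 1 (-0.24 ± 0.14, adjusted p = 0.363). Pdk1 had 69.1, 57.0 and 61.5 CPM in the libraries labelled transgenic, against 66.8, 66.7 and 64.0 CPM in controls. The 3 controls were nearly equal, and the libraries labelled transgenic lay on both sides of them (-0.07 ± 0.11, adjusted p = 0.736; 0.07 with library totals alone).

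Pdk3 was close to the depth limit. It had 24, 25 and 20 counts in the libraries labelled transgenic (0.992, 1.21 and 0.801 CPM), against 51, 6 and 9 counts in the control libraries (2.13, 0.284 and 0.415 CPM). Control replicate 1 was highest and the other controls lowest, so the log2 fold change was 0.03 ± 0.68 (SE, edgeR adjusted p = 0.984), and 1.49 without control replicate 1. Pdk3 and Me2 were 2 of the 3 genes of the set that peaked in control replicate 1, Pdp1 being the other. The part of the lymphocyte marker signal of that library in these values was not tested.

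The phosphatases reactivate the complex, with Pdp1 and Pdp2 as catalytic subunits and Pdpr as the regulatory subunit. Pdp1 had 26.2, 26.3 and 24.6 CPM in the libraries labelled transgenic, against 32.5, 29.3 and 30.1 CPM in the control libraries (ENSMUSG00000049225, chromosome 4, 11958184 to 11966452, reverse strand). The groups did not overlap and each was tight, but the difference was small (-0.25 ± 0.11 SE, 95% interval -0.51 to 0.0024, edgeR adjusted p = 0.242). Pdp2 ranged from 14.4 to 30.9 CPM in the libraries labelled transgenic and from 17.9 to 43.2 CPM in controls. Pdpr ranged from 127.1 to 171.3 CPM in the libraries labelled transgenic and from 107 to 154.2 CPM in controls. Both overlapped between the groups, with log2 fold changes of -0.50 and 0.19. The 9430091E24Rik gene overlaps Pdpr on the opposite strand, with counts of at most 12.2% of those of Pdpr.

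Citrate synthase, Cs, which opens the cycle and is widely used as a measure of mitochondrial content, had 886.7, 591.6 and 597.1 CPM in the libraries labelled transgenic, against 606.6, 700.0 and 735.0 CPM in the control libraries. Replicate 1 was the highest of all 6 and the other libraries labelled transgenic were the lowest, which left a log2 fold change of 0.02 ± 0.20 (SE, 95% interval -0.45 to 0.50, edgeR adjusted p = 0.961). Without transgenic replicate 1 it was -0.18. The other 11 cycle genes cover isocitrate dehydrogenase (Idh2, and Idh3a, Idh3b and Idh3g of the NAD-dependent enzyme), 2-oxoglutarate dehydrogenase (Ogdh, Dlst), succinyl-CoA ligase (Sucla2, Suclg1, Suclg2), fumarase (Fh1) and mitochondrial malate dehydrogenase (Mdh2). Of all 12 cycle genes, 4 had log2 fold changes above 0 and 8 below, from -0.31 for Idh2 to 0.12 for Ogdh, with a median of -0.08. With library totals alone Idh3a, Idh3g, Sucla2, Fh1 and Mdh2 turned to values above 0. Idh2, a source of mitochondrial NADPH, had 235 to 394 CPM in the libraries labelled transgenic and 307 to 454 CPM in controls. Idh3b overlaps Nop56 on the opposite strand, with Nop56 counts at most 9.70% of its own.

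Cytosolic malate dehydrogenase, Mdh1, and the aspartate aminotransferases Got1 (cytosolic) and Got2 (mitochondrial) belong to the malate-aspartate shuttle. Gpt and Gpt2 exchange pyruvate and alanine. Gpt2, the mitochondrial alanine aminotransferase, had 240.3, 396.9 and 401.9 CPM in the libraries labelled transgenic, against 371, 596.3 and 628.5 CPM in the control libraries. Transgenic replicate 1 was lowest and control replicates 2 and 3 highest, and control replicate 1 lay among the libraries labelled transgenic (-0.62 ± 0.27 SE, 95% interval -1.25 to 0.01, edgeR adjusted p = 0.243). Gpt, the cytosolic enzyme, was at 24.4 to 58.4 CPM in the libraries labelled transgenic and 27.3 to 33.6 CPM in controls. Of the summed FPKM of both alanine aminotransferases, Gpt made up 31.8%, 12.5% and 10.4% in the libraries labelled transgenic and 12.4%, 9.76% and 8.71% in controls. The share in transgenic replicate 1 stood apart from the other 5. Mdh1 ranged from 353 to 797 CPM in the libraries labelled transgenic and from 396.1 to 510.6 CPM in controls. Got1 ranged from 463 to 754 CPM in the libraries labelled transgenic and from 365 to 843 CPM in controls, and Got2 from 399 to 739.9 CPM in the libraries labelled transgenic and from 357 to 439 CPM in controls. All of them overlapped between the groups, with log2 fold changes of 0.12, -0.18 and 0.35, and that of Got1 was 0.0063 with library totals alone. Without transgenic replicate 1 the value of Got2 was 0.018 and that of Mdh1 was -0.33.

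Across the set the libraries labelled transgenic did not behave alike. Replicate 1 had the highest CPM of the 6 libraries in 19 of the 37 genes (51.4%), where it was highest in 21.1% of all tested genes. In these genes it stood 1.02 to 1.77 times above the next library and 1.17 to 2.17 times above the mean of transgenic replicates 2 and 3. The largest ratio was that of Mdh1, at 2.17, and Gpt followed closely. The 19 genes included Pdha1, Pdhb, Dlat and Pdhx, all of the pyruvate dehydrogenase core measured here, and 9 of the 12 cycle genes. It was lowest in 3 of the 37 (8.11%, against 20% of all tested genes), Pcx, Me1 and Gpt2, at 0.602 to 0.650 of the mean of replicates 2 and 3. Replicates 2 and 3 were each lowest of all libraries in 12 of the 37 genes, where they were lowest in 12.9% and 11.2% of all tested genes, and neither was highest in any.

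**Figure D4:**
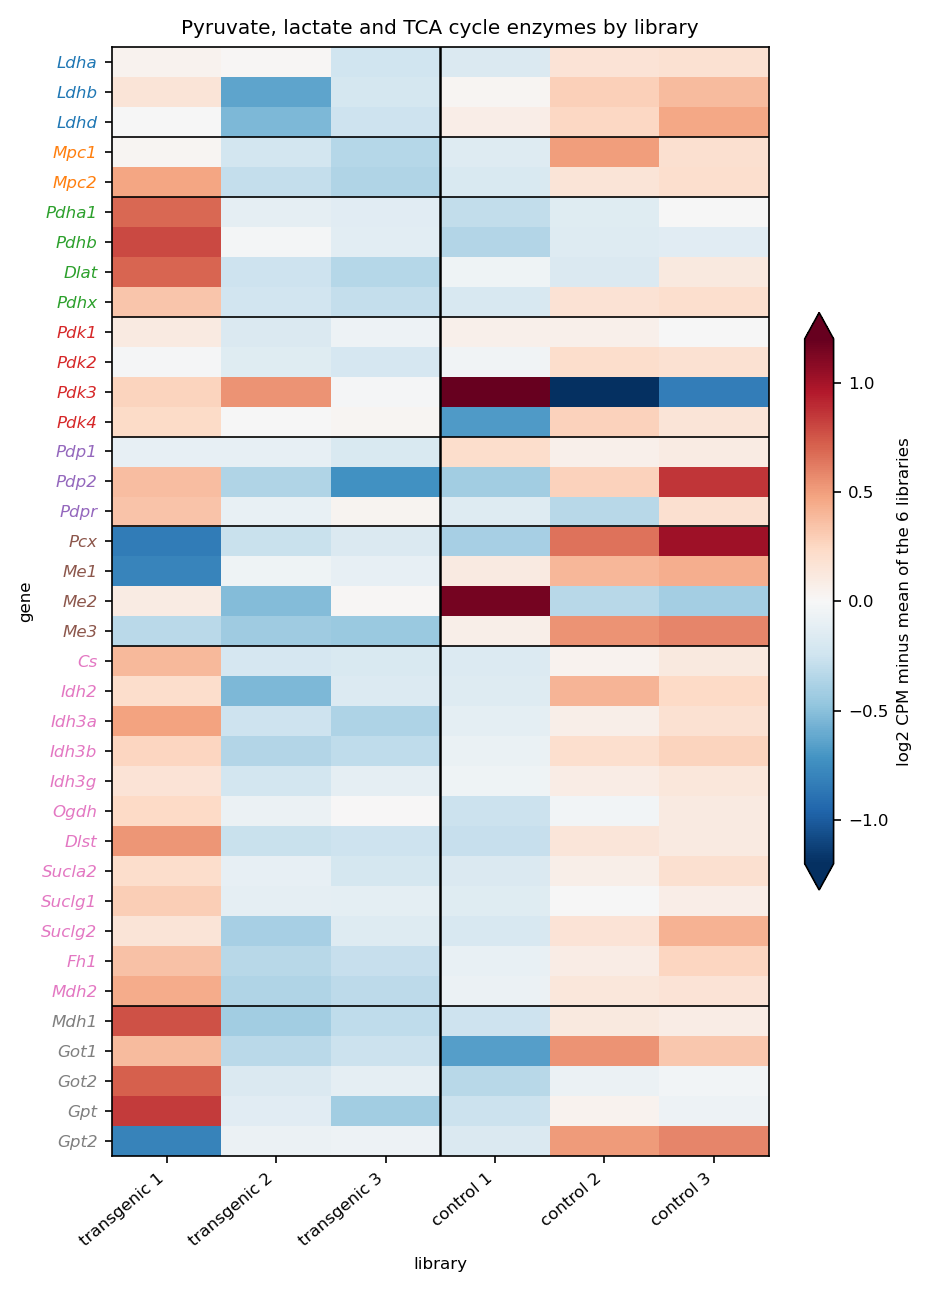
Log2 CPM of each of the 37 genes in each library, centred on the gene's mean over the 6 libraries, with the libraries labelled transgenic on the left and genes grouped by role. Transgenic replicate 1 is above the mean for the pyruvate dehydrogenase core and much of the TCA cycle, and below it for Pcx, Me1 and Gpt2.

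The median of the 37 genes, on the log2 scale and relative to each gene's mean over the 6 libraries, was 0.26, -0.22 and -0.20 in the libraries labelled transgenic and -0.15, 0.14 and 0.18 in the control libraries. Over the 12 cycle genes it was 0.28, -0.26 and -0.20 in the libraries labelled transgenic and -0.15, 0.09 and 0.17 in controls. TMM scaling sets the median of all tested genes near 0 in every library. With library totals alone the median of the 37 genes was 0.31, -0.14 and -0.098 in the libraries labelled transgenic and -0.012, -0.048 and 0.00065 in controls, where the median of all tested genes was 0.058, 0.070 and 0.086 in the libraries labelled transgenic and 0.13, -0.18 and -0.18 in controls. On both scales transgenic replicate 1 was the highest library of the set and replicates 2 and 3 the lowest, while the gap between control replicate 1 and the other controls was seen with TMM alone. The carboxylase and malic enzyme branch followed another order, at -0.56, -0.34 and -0.14 in the libraries labelled transgenic and 0.09, 0.47 and 0.51 in controls. The 34 nuclear genes of the respiratory chain list, which also holds ATP synthase genes, had medians of 0.40, -0.30 and -0.28 in the libraries labelled transgenic and -0.16, 0.19 and 0.17 in controls. The order of the libraries was that of the cycle genes except that control replicates 2 and 3 changed places. Each library was also left out in turn. Without transgenic replicate 1, which is described here because it was high in these genes, so that its removal lowers their fold changes, the log2 fold change was below 0 in 30 of the 37 genes, where it was in 53.5% of all tested genes, and the median over the set was -0.31. Leaving out each of the other 5 libraries gave 19 to 26 genes below 0 and medians from -0.18 to -0.02. In the fit without transgenic replicate 1 edgeR called 0 of the 37, where it called 0.361% of all genes. There 8 of the 37 had an unadjusted p under 0.05, against 16% of all genes.

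**Figure D5:**
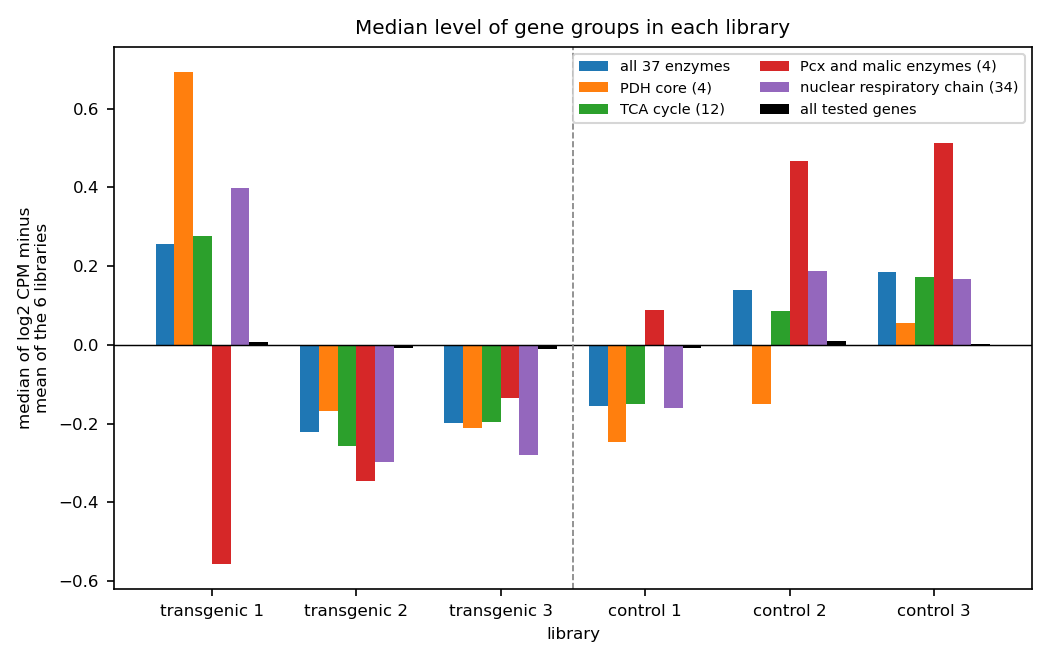
Median log2 CPM relative to each gene's mean over the 6 libraries, for each gene group and library, with the libraries labelled transgenic left of the control libraries. The 37 genes lie at 0.26 in transgenic replicate 1 and at -0.22 and -0.20 in the other libraries of that group, with TMM scaling, which sets the median of all tested genes near 0.

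Some other measures also set transgenic replicate 1 apart, though its sums of the fibre marker lists lay near those of some controls. Myh1, the myosin of type IIx fibres, had 9413 CPM there, against 2811 and 3082 CPM in the other libraries labelled transgenic and 3243 to 4090 CPM in controls. Myh4, the myosin of the most glycolytic type IIb fibres, had 29055, 50481 and 47546 CPM in the libraries labelled transgenic, against 32689, 47976 and 60249 CPM in controls. These myosins were picked from the list of 10 fast-fibre markers after their values were seen. The whole list summed to 109771, 137062 and 125374 CPM in the libraries labelled transgenic and 109840, 151424 and 160954 CPM in controls, and 3 of the 10 were highest in transgenic replicate 1, while others such as Pvalb and Actn3 were lowest there. The whole list of 10 slow and oxidative fibre markers, all detected, summed to 4569, 2328 and 3351 CPM in the libraries labelled transgenic and 3726, 4287 and 4339 CPM in controls, and 3 of the 10 were highest in transgenic replicate 1. The 6 endothelial markers, all detected and all highest in that library, summed to 565, 284 and 300.4 CPM in the libraries labelled transgenic and 303, 209 and 249 CPM in controls. None of these genes passed the test between the groups. The part of fibre type or of vessels in the values of the 37 genes was not tested, and in bulk tissue fewer cells of a type and less RNA per cell cannot be told apart.

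The list of other genes of the pathway, from lactate carriers to succinate dehydrogenase and the lipoate enzymes, held 34 names. Of these 32 were tested, and Ldhc and Ldhal6b had 0 counts in every library, which allows up to 0.120 to 0.145 CPM a library. None of the 32 passed edgeR's test in either direction, 14 had log2 fold changes above 0 and 18 below, and the median was -0.0041. The smallest p-values were those of Pck2 and Lias. Pck2, the mitochondrial phosphoenolpyruvate carboxykinase, had 19.1, 11.1 and 12.9 CPM in the libraries labelled transgenic, against 11.7, 8.51 and 9.36 CPM in controls (0.54 ± 0.24 SE, edgeR adjusted p = 0.245). Lias, the lipoyl synthase that prepares the cofactor of the dehydrogenase complexes, had 48.4, 41.5 and 42.7 CPM in the libraries labelled transgenic, against 45.7, 58.5 and 58.3 CPM in controls (-0.29 ± 0.14, adjusted p = 0.272). Both overlapped between the groups. Upstream, 14 of 16 tested glycolysis genes had log2 fold changes above 0, with a median of 0.27 and none past the threshold. Of all 14973 tested genes 6977 were above 0. The glycolysis list holds Hk2, which the transgene names, and Pkm, which is also in the list above. With TMM scaling its library medians were 0.32, 0.13 and -0.07 in the libraries labelled transgenic and -0.05, -0.14 and -0.03 in controls. The respiratory chain list had 12 of 34 above 0 and a median of -0.09.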

How the data were processed

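Gastrocnemius RNA of 6 libraries was measured, with group and replicate read from titles and genotype. Trizol RNA, 3 µg for each library, went into NEBNext Ultra preparations, per the labels. HISAT2 2.0.5, featureCounts 1.5.0-p3 and build GRCm38 are named in the submitters' processing notes. No source used here gives the strand setting, so the larger overlaps and the duplicated genes are named with their read shares. Ldhd and Mpc1 are named as uncertain. The deposited count table holds whole reads per gene, per the file headers. In the deposited FPKM table values had been scaled by the authors for gene length and library size, and served for levels between genes, for isozyme shares and for alternatives.

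The test was that of edgeR 4.0.16 (R 4.3.3, TMM scaling, filterByExpr, quasi-likelihood, legacy = FALSE) on all 14973 genes that passed the filter, with Benjamini-Hochberg adjustment over all of them at 0.05 and two-sided p-values. The SE of a log2 fold change was derived from its F statistic, and CPM use TMM library sizes. Exact permutation of 3 against 3 libraries cannot give a p below 0.1 and was not used. A count of 3 corresponds to 0.120 to 0.145 CPM and covers counting error only. The steps were tested on simulated counts.

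The genes of the set and the lists were chosen with earlier results of these data known. By rule, values of each library are given for genes past the threshold in all libraries or in a fit without 1 library, genes whose groups did not overlap, the 8 smallest p-values, and Ldha, Ldhb, Pdk1 to Pdk4, Cs, Mpc1 and Mpc2. Alternatives were DESeq2 1.42.0, limma-voom and limma on log2 FPKM (limma 3.58.1), other scalings, no filter, fits without each library and a replicate block. A fit without control replicate 1 and transgenic replicate 1 together was also run. It is not reported, because transgenic replicate 1 had been picked for its values in these genes. Promoter sequences are from RefSeq, GRCm38.p6.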

Additional observations from a re-analysis of the deposited data

How the results depend on the processing

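Of the log2 fold changes of the 37 genes, all kept their sign with RLE size factors, no filter, DESeq2, both FPKM fits and the replicate block. With library totals alone 10 turned, to 0.039 (Ldha), 0.081 (Mpc2), 0.054 (Pdhx), 0.068 (Pdk1), 0.11 (Idh3a), 0.049 (Idh3g), 0.10 (Sucla2), 0.012 (Fh1), 0.046 (Mdh2) and 0.0063 (Got1), and the median of the 37 in control replicate 2 was -0.048. With limma-voom Cs was at -0.0014. Leaving out 1 library at a time gave values of both signs for Mpc2 (-0.38 to 0.073), Dlat (-0.25 to 0.33), Pdhx (-0.31 to 0.0044), Pdk3 (-0.38 to 1.49), Pdk4 (-0.13 to 0.29), Me2 (-0.72 to 0.28), Cs (-0.18 to 0.12), Idh3a (-0.34 to 0.11), Dlst (-0.25 to 0.19), Sucla2 (-0.17 to 0.030), Suclg1 (-0.076 to 0.13), Mdh2 (-0.40 to 0.037), Mdh1 (-0.33 to 0.33), Got1 (-0.47 to 0.057) and Gpt (-0.17 to 0.52).

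Over all genes 194 passed in edgeR, 118 with higher and 76 with lower levels under the transgenic label. With library totals alone 205 were higher and 54 lower. The count was 124 with no filter, 1065 in DESeq2, 112 on log2(FPKM + 1), 121 on log2(FPKM + 0.1) and 5 with the replicate block. It ranged from 0 to 1956 without 1 library, from 0 without control replicate 3, where 2116 genes had an unadjusted edgeR p under 0.05, to 1956 without control replicate 1. Without transgenic replicates 1, 2 and 3 in turn it was 54, 1 and 1, and without control replicate 2 it was 3. Among the 37 genes 1 passed with library totals alone and 1 in DESeq2, and 0 to 2 without 1 library. The causes were not tested.

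With the replicate number as a block 0 of the 37 genes passed, and 5 had an unadjusted p under 0.05. The numbers share no stated animal or batch, same-numbered libraries correlated in their deviations from the group means at -0.02, -0.17 and 0.16, and not every library correlated best with its own number. Depth limits Pdk3, which had 6 to 51 counts a library.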

Other observations

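The nuclear gene Nnt, the proton-pumping transhydrogenase that makes mitochondrial NADPH and is known to be deleted in part in C57BL/6J mice, was at 0.744, 0.291 and 0.481 CPM in the libraries labelled transgenic and 0.417, 1.70 and 0.645 CPM in controls. Pck1, the cytosolic phosphoenolpyruvate carboxykinase that is abundant in fat, had 20.9, 121.5 and 68.5 CPM in the libraries labelled transgenic and 127.4, 17.8 and 30.2 CPM in controls. Both groups spanned a wide range of Pck1, with transgenic replicate 2 and control replicate 1 highest, and the adipocyte marker sum given above was highest in these libraries too. Got2 made up 34.05%, 31.2% and 31.2% of the summed Got1 and Got2 FPKM in the libraries labelled transgenic, and 33.95%, 21.0% and 24.2% in controls. Pseudogenes described in the deposited table under the name of a gene of the set were found for Mpc1, Ldha and Got2, and unnamed copies were not searched for. Ldha-ps and Ldha-ps2 together took at most 0.254% of their reads summed with those of Ldha, and Got2-ps1 took at most 0.481% of its reads summed with those of Got2.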
